A study of Mus musculus with 4 samples.

Results

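Principal 5 is a population of principal cells, the absorptive and secretory epithelial cells of the epididymis, that was captured on both sides of the border between caput and corpus. Its members were taken from the annotation deposited with the counts, as the 1 population there that holds 239 cells, of which 67 came from the caput library and 172 from the corpus library. They are 239 of 3956 principal cells in 15 populations and of 8880 cells in all. Of the 15, populations 1 to 11 are epididymal and run along the duct from the caput to the cauda, and the others are from the vas deferens. Principal 5 made up 9.10% of the 736 principal cells of the caput library (95% interval 7.12 to 11.4) and 18.5% of the 929 of the corpus library (16.1 to 21.2). It was not found among the 931 principal cells of the cauda library, which allows a share of up to 0.322%, or among the 1360 of the vas deferens library, which allows up to 0.221%. Here and below, the limit given for a count of 0 is 3 of the total, in place of an interval.

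The study profiled single cells of the mouse epididymis and vas deferens. Adult male FVB/NJ mice of 10 to 12 weeks were used, with no treatment and no altered genotype in the labels. Tissue of 8 epididymides from 4 mice was pooled by region into caput, corpus, cauda and vas deferens, freed of sperm, dissociated and made into 1 library of 3′ ends per region on the 10X Chromium platform. The caput library held 4408989 unique molecular identifiers (UMIs) in 1433 cells, and the corpus library 6602962 in 2325. The region cuts were rough, so a cell's library says on which side of a cut its piece of duct lay. With 1 library per region no value has a replicate, no test between regions or populations was possible, and all intervals are 95% intervals for counting error alone. They do not cover the spread between animals, dissections or dissociations. Across libraries, 43 barcodes occurred more than once, 4 of them in principal 5 cells. Of the 239 cells, 2 were called doublets and kept, against 178 of 8880 overall (2.00%). The number called in each library was fixed beforehand from an assumed rate of 0.8% per 1000 cells, so the overall share was not measured.

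The epididymis is a single long coiled duct in which sperm mature. Its principal cells secrete proteins and small vesicles into the lumen and take up others, and the set of secreted proteins changes from segment to segment, so that passing sperm meet them in turn. Beta-defensins (Defb genes), small cationic peptides of innate defence, some of which coat sperm, lipocalins such as Lcn5, which carry retinoids and other small lipids, protease inhibitors of the Spink, Wfdc and Spint families, and ribonuclease-like proteins such as Rnase9 are among its best known products. Androgens and factors of the testis fluid that flows into the duct are both needed for this program.

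The sequence around the start of transcription was looked at for 5 of the genes with the largest excess in principal 5, and is shown for the 3 in which a match was found, since principal cells depend on androgens and the androgen receptor binds pairs of a short half-site. The windows run from 250 bases before the start to 50 after it, in RefSeq annotation of GRCm38.p6, 5′ to 3′ on the strand of the gene. Capitals mark every match, on either strand, to the androgen receptor half-site AGAACA (reversed, TGTTCT). They also mark every match to the TATA box TATAAA (reversed, TTTATA). The window of Lcn5 (chr2:25657702-25658001, forward strand) held TATAAA 28 bases before the start. That of Defb23 (chr2:152464571-152464870, reverse strand) held AGAACA 232 and 13 bases before the start and TATAAA 221 bases before it. That of Defb30 (chr14:63037797-63038096, reverse strand) held the reverse forms of the half-site, 84 bases before, and of the TATA box, 222 bases before. The windows of BC048679 (chr7:81498281-81498580, reverse strand) and Defb21 (chr2:152572493-152572792, forward strand) held neither.
Lcn5: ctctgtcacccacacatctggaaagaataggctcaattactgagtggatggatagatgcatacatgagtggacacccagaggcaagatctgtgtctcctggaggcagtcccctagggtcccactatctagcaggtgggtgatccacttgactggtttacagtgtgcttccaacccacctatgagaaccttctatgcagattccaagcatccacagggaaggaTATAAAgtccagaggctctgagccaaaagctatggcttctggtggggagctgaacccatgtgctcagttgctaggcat
Defb23: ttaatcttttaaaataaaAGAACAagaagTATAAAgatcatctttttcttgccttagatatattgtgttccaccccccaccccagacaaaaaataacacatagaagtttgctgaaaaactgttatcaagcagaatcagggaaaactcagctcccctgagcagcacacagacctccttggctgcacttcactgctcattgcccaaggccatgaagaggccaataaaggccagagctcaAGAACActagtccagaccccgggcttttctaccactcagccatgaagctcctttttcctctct
Defb30: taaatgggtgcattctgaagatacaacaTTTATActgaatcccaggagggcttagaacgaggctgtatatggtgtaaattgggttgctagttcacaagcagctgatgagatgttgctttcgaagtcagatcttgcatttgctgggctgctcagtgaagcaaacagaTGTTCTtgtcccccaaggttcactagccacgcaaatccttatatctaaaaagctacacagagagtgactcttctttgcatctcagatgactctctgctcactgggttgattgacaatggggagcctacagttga
Of all 27025 RefSeq promoter windows, 5139 (19.0%) held the half-site on either strand and 3827 (14.2%) the TATA box. Of the 153 genes enriched in principal 5, described next, 116 had a window among these, and 15 of those held the half-site and 15 the TATA box (12.9% each). A match is a run of letters, not a binding site.

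Levels are given as UMIs of a gene per 1000000 UMIs of the summed cells (UPM). The libraries count 3′ ends, so UPM was not divided by transcript length. Principal 5 held 484487 UMIs, with a median of 721 per cell (230 to 14305) and a median of 382 genes. Its 67 caput cells held 179294 UMIs (median 1243) and its 172 corpus cells 305193 (median 685.5). In the authors' first round of clustering 226 of the 239 cells lay in 1 cluster of 311 cells, together with all 74 cells of principal 4. The other 13 were spread over 3 clusters.

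**Figure D1:**
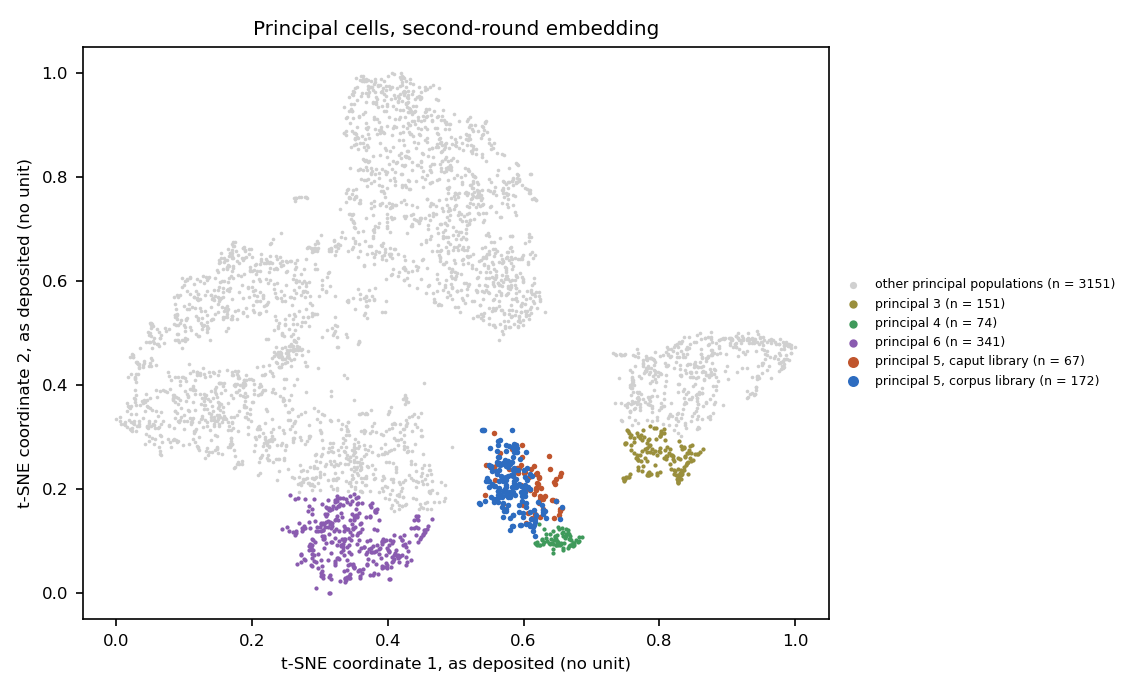
The deposited t-SNE coordinates of the principal cells, in arbitrary units on both axes. Each point is a cell, with the 67 caput and 172 corpus cells of principal 5 and the cells of principal 3, 4 and 6 in colour and all other principal cells in grey. Caput and corpus cells of principal 5 share one area of the map.

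The given markers were checked first. Rnase9 (chr14:51038459-51041903), an epididymal member of the ribonuclease A family, stood at 8782 UPM in principal 5 (8521 to 9050). It was at 9816 UPM in the caput cells and 8175 in the corpus cells. That was 13.0 times the median of the other epididymal principal populations, and levels ran from 37.2 UPM in principal 1 through 4144 in principal 3 to 22578 in principal 4, then 2400 in principal 6 and 1513 in principal 7. Clu (chr14:65968483-65981548), which encodes the secreted chaperone clusterin, stood at 12692 UPM (12376 to 13013), at 13810 UPM in the caput and 12035 in the corpus cells. It was 3.89 times the median. Clu was as high as 32879 UPM in principal 3 and 34463 in principal 4, and was at 857 UPM in principal 6. Both markers were thus present in principal 5, and both were higher in principal 4, so neither singles principal 5 out. The general principal cell markers gave no call either way in 6 of 6 genes compared, and Krt8, an epithelial keratin, was at 1247 UPM (1149 to 1350), against 1166 (1062 to 1278) in the next epididymal population, principal 9.

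Markers of the duct's segments were looked at along the duct. The 2 compared for segment 1 were called neither way (median log2 ratio 0.34 to the middle of the other epididymal principal populations). Of the 2 for segments 3 to 4, Defb15 was enriched and Lcn2 was not (median 3.61), and of 3 general caput genes Gpx5 and Spag11b were (5.58), both through their caput cells. All 3 markers fixed for segments 5 to 6 were high (3.70). Besides Rnase9 they were Lcn5 and Plac8, a small cysteine-rich protein gene, at 867 UPM (786 to 954), its highest level among the 11 populations, with principal 3 next at 331. All 3 markers fixed for segment 10, the end of the cauda, were low. Crisp1, a cysteine-rich secretory protein that binds sperm, was at 2495 UPM against 72435 in principal 6 and 195180 in principal 11. Ptgds, the lipocalin-type prostaglandin D synthase, was at 1067 UPM, and the protease inhibitor gene Spink10 at 363. Npy, which marks segment 7, was at 92.9 UPM against 4444 in principal 6, but was level with the middle of the others (log2 ratio 0.013). The 3 compared for segments 8 to 9 were called neither way (−0.59). These lists were chosen with earlier results of these data known, so they describe the cells and test nothing.

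A gene was called enriched when it had 20 UMIs or more and stood 4-fold or further above the middle of the other 10 epididymal principal populations, each of them raised to the level of 3 UMIs where it had fewer. Of 3414 genes with enough UMIs to compare, 153 were enriched (4.48%), and 76 (2.23%) were low by the same fold. The median gene was 0.38 higher than the median of the others on the log2 scale. Only 59 of the 153 had their highest level in principal 5. The highest other population was most often principal 4 (45 genes), principal 3 (38), principal 2 and principal 7 (23 each). The members were defined by clustering these same counts, so the calls describe the population and are not a test of it. Without the caput library 133 genes were enriched and 115 low, and without the corpus library 106 and 66.

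Among the leading enriched genes were a lipocalin, several beta-defensins and genes of less known role. Lcn5 (chr2:25657932-25662230), the epididymal retinoic acid-binding lipocalin, was the most abundant gene of principal 5 at 45644 UPM (45044 to 46250), with 52657 in the caput and 41525 in the corpus cells. It was 93.5 times the median of the others. Its level stepped up from 34358 UPM in principal 3 to 148338 in principal 4 and down again through principal 5 to 404 in principal 6, and was 3041 in principal 7. Caput and corpus cells of principal 5 both lay between principal 4 and principal 6. AY761185 (chr8:20943694-20944748), which sits among the defensin genes of chromosome 8, was at 32696 UPM (25126 in the caput and 37144 in the corpus cells), against 62823 in principal 4, 17079 in principal 7 and 10536 in principal 6. The largest ratio, 345, belonged to BC048679 (chr7:81494274-81498330) at 5484 UPM (5278 to 5697). It had no UMI in principal 3, 1782 UPM in principal 4, 1522 in principal 6 and 2599 in principal 7. Principal 5 was its peak, and it was 3380 UPM in the caput against 6720 in the corpus cells. Gm6792, at 9808 UPM, was 115 times the median and was highest in principal 4 at 30899.

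**Figure D2:**
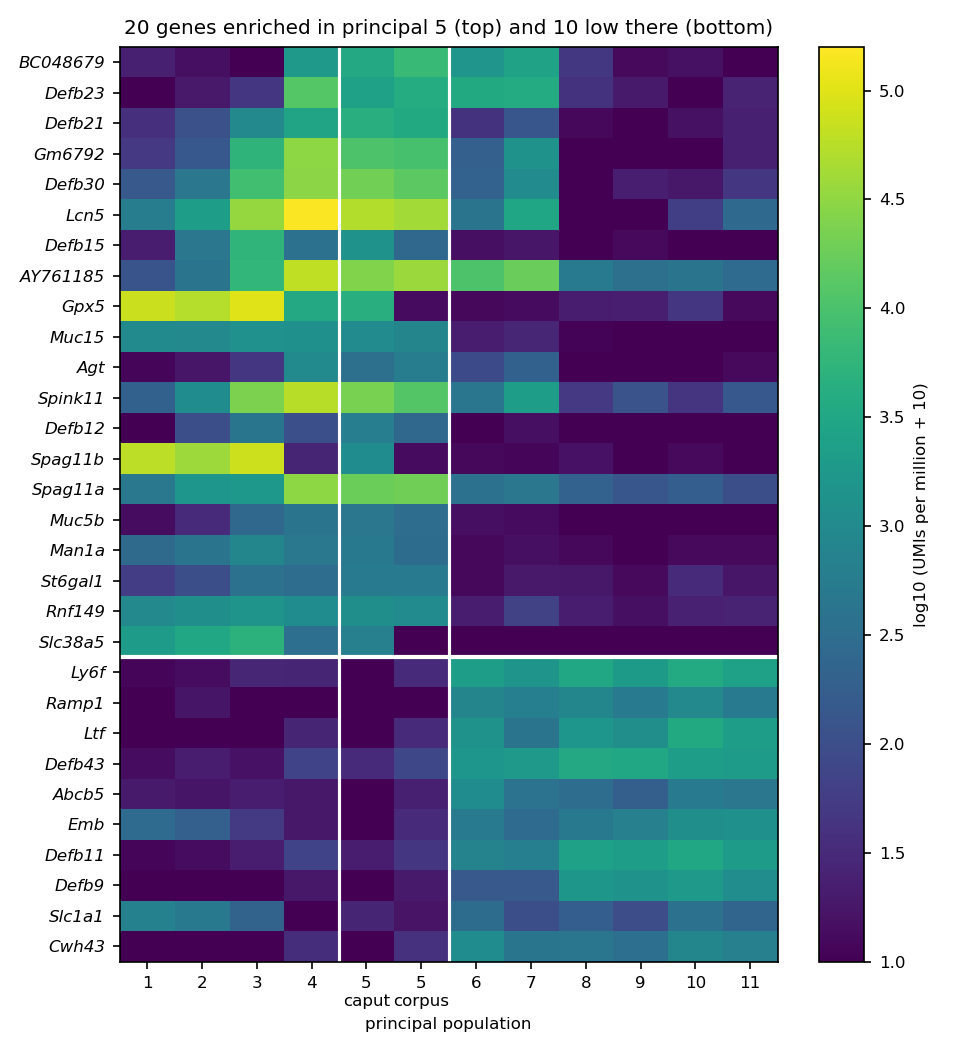
Heat map of level, as log10 of UPM plus 10, for the 20 genes with the largest excess in principal 5 (top) and the 10 with the largest deficit (bottom), in principal 1 to 11 with principal 5 split into its caput and corpus cells. Many of the 20 are also high in principal 3, 4 or 7, and Gpx5, Spag11b and Slc38a5 are, within principal 5, high in its caput cells alone.

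The beta-defensin family held more enriched genes than any other list examined. Of 38 Defb genes in the files 26 could be compared, 13 were enriched and 5 were low, with a median log2 ratio of 2.18. For all 3414 genes compared the shares were 4.48% enriched and 2.23% low. Defb30 (chr14:63034087-63037846), whose start is shown above, was the most abundant at 16170 UPM, 20029 in the caput and 13903 in the corpus cells, with 29716 in principal 4 and 8564 in principal 3. Defb21 (chr2:152572743-152574944) had its peak in principal 5 at 3827 UPM (3655 to 4005), with 4211 in the caput and 3601 in the corpus cells. Its level was 950 UPM in principal 3, 2800 in principal 4 and 30.5 in principal 6, so it ended at principal 6. Defb23 (chr2:152459055-152464620) did not end there: at 3472 UPM in principal 5, it was 12180 in principal 4, 3598 in principal 6 and 3860 in principal 7. Defb42 was at 5907 UPM, Defb39 at 2403 and Defb29 at 1618, the last with its peak in principal 5 (principal 4 next, at 1182). Defb12, Defb13, Defb15, Defb36, Defb41, Defb45 and Defb47 were the other enriched members. Of these, Defb45 had all of its 71 UMIs and Defb41 77 of 82 in caput cells, and Defb12, Defb13, Defb15 and Defb47 were at least 2-fold higher there, the last 2 not so when set against the non-principal cells of the same libraries. The low members were Defb1, Defb9, Defb11, Defb40 and Defb43.

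By position, with AY761185 and the defensin-like sperm-binding genes Spag11a and Spag11b added, chromosome 8 held 7 enriched and 4 low genes of 15 compared. Chromosome 2 held 5 enriched and none low of 8, chromosome 14 held 3 enriched and 1 low of 4, and chromosome 1 held 1 enriched of 2. So neighbouring defensin genes went both ways within the chromosome 8 and 14 groups. The 2 Spag11 genes also differed. Spag11a (chr8:19157213-19159920) was at 18671 UPM, 17747 in the caput and 19214 in the corpus cells, against 30116 in principal 4. Spag11b was at 402 UPM, nearly all of it in caput cells, against 75759 in principal 3. Genes of this family are alike in sequence, and reads that matched more than one place were not counted by the authors, so the levels of near-identical members are uncertain.

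The next families are small, and their counts stand beside 4.48% enriched and 2.23% low over all genes compared. Of 4 lipocalin genes compared, Lcn5 and Lcn8 (80.5 UPM) were enriched, Lcn8 through its caput cells (36 UMIs against 3), and of 3 in the ribonuclease A family, Rnase9 and Rnase13 (92.9 UPM). Of 7 Kazal-type inhibitor genes, Spink11 (15823 UPM; 22237 in the caput and 12055 in the corpus cells), Spink12 (1371) and Spink2 (712) were enriched and Spink10 and Spink13 were low. Spink8 was the third most abundant gene of principal 5 at 23136 UPM (22710 to 23568) but was called neither way, since it was at 84011 UPM in principal 4 and 47217 in principal 6. Of 8 Wfdc inhibitor genes 2 were enriched (Wfdc13, 619 UPM, and Wfdc8, 454) and 3 low (Wfdc15b, Wfdc16, Wfdc6a). Of 4 Spint genes 2 were enriched (Spint4, 516, and Spint5, 367) and Spint3 was low. Of 3 Serpin genes 1 was enriched, Serpinb6b with 20 UMIs, and it stood at a log2 value of −0.63 without 3 corpus cells rich in a clear cell gene that are described below. Among 14 sperm-binding proteins compared, 4 were enriched, Spag11a, Spag11b, the cholesterol-binding Npc2 (4607 UPM) and Bsph1, a binder of sperm (157; 71 UMIs in caput against 5 in corpus cells), and 3 were low. The low ones were Crisp1, Cd52, a small lipid-anchored glycopeptide passed on to sperm, at 1179 UPM against a median of 17166, and the protease inhibitor Eppin at 24.8.

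The remaining enriched genes of the leading 20 act in other ways. Agt, which encodes angiotensinogen, was at 493 UPM (1017 in principal 4). Muc15, a membrane mucin, was at 904 UPM and Muc5b, a gel-forming mucin, at 355. Man1a, a Golgi mannosidase, was at 363 UPM. St6gal1, which adds sialic acid to glycoproteins, was at 526 UPM, 524 in the caput and 528 in the corpus cells, and was higher in principal 5 than in any other population (principal 3 next, at 361). Rnf149, a membrane ubiquitin ligase gene, was at 1129 UPM, close to its level in principal 1 to 4 and 96.1 times that of principal 6. Gpx5, a secreted glutathione peroxidase of the caput, and the glutamine transporter gene Slc38a5 also passed the rule, at 1651 and 250 UPM, through their caput cells.

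Of the 10 lowest genes, 8 stood at no more than 60.9 UPM in each of principal 1 to 4 and at 141 or more in each of principal 6 to 11, so principal 5 lay on the proximal side of their onset. The exceptions were Emb and Slc1a1, which were also high in principal 1 (284 and 680 UPM). Ramp1, an accessory subunit of peptide receptors, had no UMI in principal 5 against a median of 531 UPM in the others. Ltf, the iron-binding lactoferrin, was at 14.4 UPM against 783, and Ly6f, of the Ly6 surface protein family, at 14.4 against 1711. Defb43 was at 53.7 UPM against 1724, Defb11 at 26.8 against 696 and Defb9 at 6.19 against 141. The membrane transporter gene Abcb5 was at 8.26 UPM against 242, the glutamate transporter gene Slc1a1 at 10.3 against 216, the monocarboxylate transporter partner Emb at 14.4 against 385, and the lipid-anchor remodelling gene Cwh43 at 18.6 against 378.

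Lists of cellular processes were described in the same way. Their counts are to be read beside 4.48% enriched and 2.23% low over all 3414 genes compared, and a single call in a short list says little. Of 20 genes for protein folding in the endoplasmic reticulum none was called (median log2 ratio 0.17; Hspa5, the main chaperone there, 4663 UPM against 9285 in principal 4), nor was any of 120 nuclear genes for mitochondrial proteins (0.27) or of 10 Hox genes (1.09). Of 14 genes that respond to tissue dissociation, Jun the highest at 2287 UPM, none was called and their median log2 ratio was 0.97. Of 9 transcription factors of the duct 1 was called, Gata3, low; Cebpb was the most abundant, at 390 UPM. Of 6 genes for ion and water transport 1 was enriched, Car4, a carbonic anhydrase, at 57.8 UPM (996 in principal 6). Of 6 endocytosis genes 1 was low, Lrp2, the receptor megalin, at 4.13 UPM. Of 11 genes listed for the response of the initial segment to testis fluid, only 2 had enough UMIs to compare. Both were enriched, the glutathione-degrading Ggt1 (184 UPM) and the receptor kinase gene Ros1 (53.7). A gene can enter the comparison through its UMIs in principal 5 alone, so these 2 do not describe the response. Etv1, Etv5 and Spry4 had no UMI. The list summed to 305 UPM, against 339 in principal 1, 463 in principal 2, 289 in principal 3 and 313 in principal 4. Of 48 Slc transporter genes 4 were enriched and 5 low, of 5 aldo-keto reductase genes 3 were low, and of 12 glutathione transferases 1 was low.

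A few enriched genes, chosen after their values were seen, were higher in principal 5 than in each of the other 10. Zfand5, a zinc-finger gene, was at 1647 UPM (1535 to 1766), against 514 in principal 7. Tpm1, an actin-binding tropomyosin, was at 652 UPM (582 to 728), against 139 in principal 4. Mbnl3, a splicing regulator, was at 572 UPM against 198 in principal 3. Sin3b, a corepressor, was at 836 UPM against 332 in principal 7, and the transcription factor genes Tfap2b and Tcf7 were at 260 against 158 (principal 7) and 188 against 95.6 (principal 4). Ido1, which breaks down tryptophan, was at 502 UPM (440 to 569) against 478 in principal 4, a difference within counting error.

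Single cells were compared after 1000 UMIs were drawn from each cell, which counts 105 cells of principal 5 (36 caput and 69 corpus) and leaves out 134 with fewer. Every counted cell had Lcn5, with a median of 47 of 1000 UMIs (7 to 105). Rnase9 was seen in 104 of 105 cells (99.0%, 94.8 to 100), as was Clu. Without drawing, the shares over all 239 cells were 81.6% for Rnase9 and 90.0% for Clu. Basal cells, which lie under the principal cells and should lack these products, give the background. Rnase9 was in 0.820% of caput and 3.27% of corpus basal cells (before drawing, the counted cells had a median of 6012 and 6632 UMIs, against 3010 in principal 5). Clu, however, was in 86.1% of caput and 61.1% of corpus basal cells, so a Clu UMI in a cell says little about its type. In the other populations Rnase9 was in 21 of 45 cells of principal 3 (46.7%), 40 of 40 of principal 4 and 94 of 139 of principal 6 (67.6%). Defb21 was in 91.4% of principal 5 cells and BC048679 in 82.9%, the latter in 61.1% of caput and 94.2% of corpus cells.

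**Figure D3:**
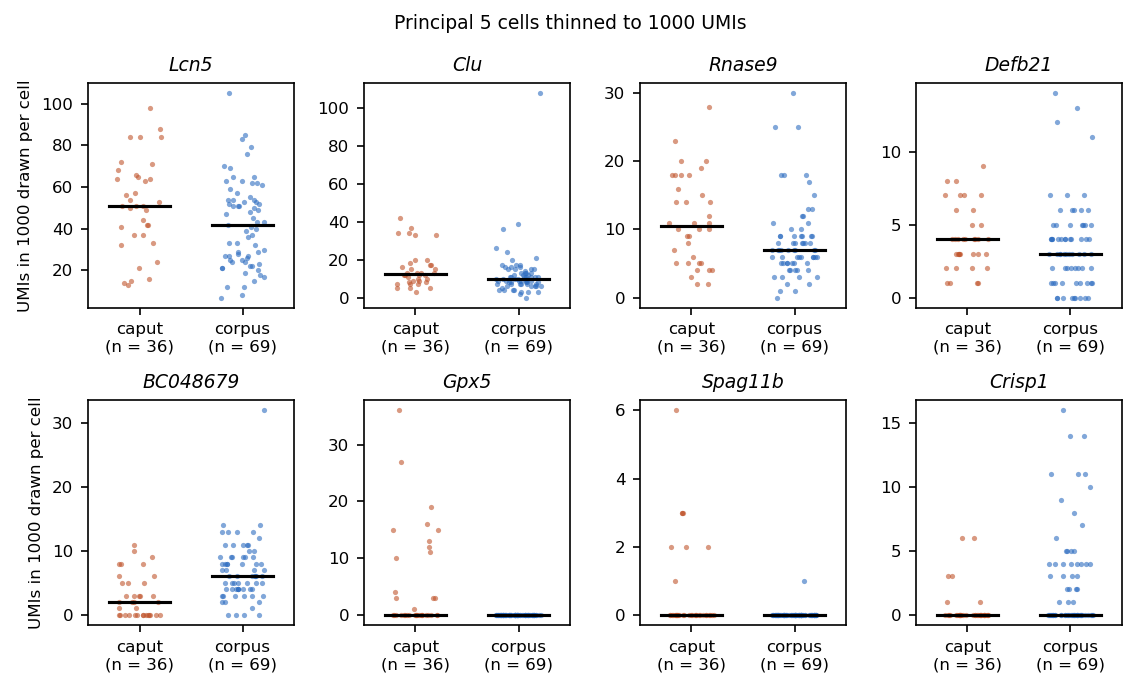
UMIs of 8 genes in 1000 UMIs drawn from each principal 5 cell with at least that many, for 36 caput and 69 corpus cells. Each point is a cell and the line is the median. Lcn5, Clu, Rnase9 and Defb21 overlap between the libraries, Gpx5 and Spag11b are found in some caput cells and BC048679 and Crisp1 are found in more of the corpus cells.

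Across 7437 genes with at least 100 UMIs in principal cells, the profile of principal 5, as log2 of UPM plus 10, was closest to that of principal 7 (Pearson r 0.850, Spearman rho 0.795), then principal 2 (0.791), 8 (0.779), 3 (0.776) and 4 (0.757), with principal 6 at 0.734. These are descriptions over genes, which are not independent and share the scaling of each library. Without ribosomal protein genes principal 7 was still at 0.827. By this measure, which was not adjusted for depth, the whole profile was nearest to a corpus population 2 numbers further on. Principal 7, 2 and 8 held 643832, 844143 and 842921 UMIs, and principal 3 and 4 held 166278 and 115021. The part of depth in this order was not tested. The 5 genes whose levels over the 15 principal populations were most like those of Rnase9 were Enpp1 (r 0.979), Defb39 (0.967), AY761185 (0.966), Wfdc11 (0.955) and Pdia5 (0.950).

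Next, principal 5 was set beside its neighbours at a 2-fold difference and at least 20 UMIs. Principal 3 came from the caput library only (151 cells, 166278 UMIs). Of 3159 genes compared, 1176 were higher in principal 5 (37.2%) and 179 lower (5.67%), with a median log2 difference of 0.68. Without the corpus library, which leaves the 67 caput cells of principal 5, 496 were higher and 163 lower. Among the lower genes were known products of the proximal caput such as Gpx5. Lypd8 was 293 times lower, Defb18 255 times, Spag11b 188 times, the lipocalin gene Lcn6 100 times and Gm5531 80.9 times, and Gpx5 was 59.1 times lower. Of the principal 5 UMIs, 194 of 195 for Spag11b and 799 of 800 for Gpx5 lay in its caput cells. In those cells alone the deficit of these 2 genes was smaller. BC048679 had 2657 UMIs in principal 5 and none in principal 3, at least 304-fold higher. Wfdc13 had 300 and none, at least 34.3-fold higher. Defb28 was 162 times and Defb23 96.2 times higher, and Crisp1 had 1209 UMIs against 5, an 83.0-fold difference. Of the 1209, 1101 lay in corpus cells, so the excess of Crisp1 was smaller in the caput cells alone. The given markers split here. Rnase9 was 2.12 times higher in principal 5 than in principal 3, and Clu was 2.59 times lower. Lcn5 was 1.33 times higher.

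Principal 6 came almost wholly from the corpus library (327 of 341 cells, 425776 UMIs). Of 4088 genes compared, 619 were higher in principal 5 (15.1%) and 1072 lower (26.2%), with a median log2 difference of −0.26. Without the caput library 482 were higher and 777 lower. Without the corpus library, which leaves 1 caput and 13 cauda cells of principal 6, 221 were higher and 46 lower. Products shared with principal 4 were much higher in principal 5. Lcn5 was 113 times higher in principal 5 (97.3 to 132), Defb21 125 times, Defb30 81.0 times and Clu 14.8 times (13.3 to 16.5). Crip1, a small LIM-domain protein gene, was 59.8 times higher, at 10401 UPM against 174. Gpx5 had 800 UMIs against 1 and Defb15 334 against 2. Of the principal 5 UMIs, 799 for Gpx5 and 259 for Defb15 lay in its caput cells. Its 172 corpus cells held 1 UMI of Gpx5, so that excess was not there within the corpus library. In turn Ly6f was 158 times lower, Defb22 150 times, Abcb5 130 times and Defb26 129 times. Ramp1 had no UMI against 342, at least 130-fold lower. Crisp1 was 29.0 times, Npy 47.8 times and Cd52 15.1 times lower. Of all genes called in these comparisons, 276 were higher in principal 5 than in each of principal 3, 4 and 6 and 21 were lower than in each.

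Principal 4 shared a first-round cluster with principal 5. It held 74 cells (19 caput and 55 corpus) with 115021 UMIs. Of 3123 genes compared, 1478 were higher in principal 5 (47.3%) and 105 lower (3.36%), with a median log2 difference of 0.97. With the 20 most abundant genes left out of the totals, the counts were 593 higher and 214 lower. Without the caput library they were 1348 and 103, and without the corpus library 287 and 38. Among the lower genes were major secreted products of both populations. Lcn5 was 3.25 times, Spink8 3.63 times, Spink11 3.57 times, Clu 2.71 times, Crisp1 2.69 times and Rnase9 2.57 times lower, the last a ratio of 0.389 (0.370 to 0.409). The largest deficits were Slc16a1, a lactate transporter gene (4.04 times), Ggh, which trims folates (4.01), the mitochondrial Cisd1 (3.86), the epithelial adhesion gene Epcam (3.83) and Manf, a secreted protein of the endoplasmic reticulum (3.69). Among the higher genes, Rpl36a had 453 UMIs in principal 5 and 2 in principal 4, and the ATP synthase subunit gene Atp5e had 354 and 2. Atf4, a transcription factor of the stress response, had 395 and none, at least 31.3-fold higher. Tpt1, an abundant growth-associated protein gene, had 1137 against 10 UMIs, 27.0 times higher (14.6 to 56.4). Rps24 was 35.5 times higher, Rpl41 5.59 times, Plac8 6.23 times, Crip1 5.32 times and BC048679 3.08 times.

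Ribosomal protein genes stood far apart between these 2 populations. They took 16.1% of UMIs in principal 5 (16.0 to 16.2) and 2.19% in principal 4 (2.11 to 2.28). In principal 5 the share was 16.1% in the caput and 16.0% in the corpus cells. Cells below 1000 UMIs were at 10.7% and deeper ones at 16.8%, and in principal 4 these were 2.04% and 2.22%, so the gap was there at both depths. The share was 6.06% in principal 3 and 5.23% in principal 6 but 13.4% in principal 2, 15.0% in principal 7, 19.3% in principal 8 and 21.6% in principal 9. It did not follow the order of the duct. Of the ribosomal protein genes compared, 78 of 78 were higher in principal 5 than in principal 4, 68 of 78 than in principal 3 and 70 of 79 than in principal 6. A low share of these genes and a high share of a few secreted products are linked through the common total, and their part in each other was not tested.

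**Figure D4:**
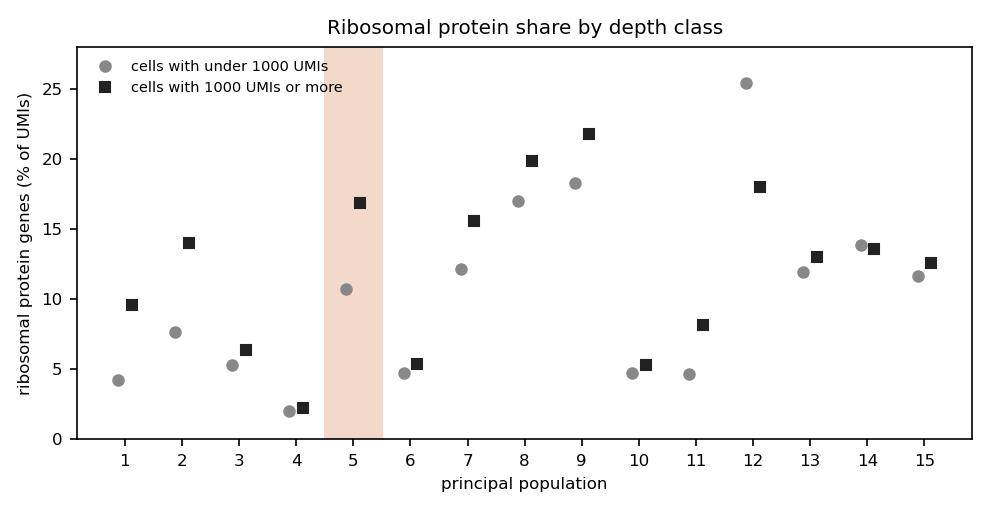
Percent of UMIs on 81 ribosomal protein genes in each of the 15 principal populations, given for cells under 1000 UMIs and for cells with at least 1000. Principal 5, shaded, stands at 10.7% and 16.8%, above its neighbours 3, 4 and 6 at either depth.

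The difference from principal 4 was also seen inside each library. Over 1049 genes that could be compared in both, 286 were higher in principal 5 in the caput library (27.3%) and 651 in the corpus library (62.1%), and 256 of them in both. The lower ones were 34 (3.24%) and 93 (8.87%), with 31 in both, and no gene was called in opposite directions. Principal 4 held 23080 UMIs in the caput and 91941 in the corpus library, so its floor of 3 UMIs lay at 130 and 32.6 UPM. A call of higher was thus harder to reach in the caput library, and the shares of the 2 libraries are not comparable. Ribosomal protein genes were 75 of the 256. Lcn5 was at 52657 UPM in principal 5 and 155420 in principal 4 in the caput library, and at 41525 and 146560 in the corpus library. Tpt1 had 400 UMIs against none in the caput and 737 against 10 in the corpus library. Rnase9 was 2.45 and 2.72 times lower, Clu 3.16 and 2.67 times, Spink11 3.97 and 4.03 times, and Manf 3.09 and 4.05 times, in caput and corpus in turn. Crip1 was 3.85 and 5.91 times and BC048679 3.90 and 3.34 times higher.

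The last comparison set the caput against the corpus cells of principal 5. The median log2 ratio was −0.05, and of 1294 genes with enough UMIs to compare, 55 were at least 2-fold higher in the caput cells (4.25%) and 75 in the corpus cells (5.8%). As a mean over cells the counts were 115 and 264, and with a minimum of 10 UMIs 155 and 298. Rnase9, Clu, Lcn5, Spag11a, Defb21 and Gm6792 were not among them. Those higher in caput cells were led by genes abundant in principal 3, such as Gpx5, Spag11b and Slc38a5. Gpx5 (chr13:21286429-21292727) had 799 UMIs in 21 of 67 caput cells and 1 UMI in the 172 corpus cells, a ratio of 453 with a counting interval of 243 to 53786. Spag11b had 194 against 1 and Clpsl2, a colipase-like gene, 79 against 1. Slc38a5 had 121 against none, at least 68.7-fold higher, and Defb45 71 against none, at least 40.3-fold higher. The protease inhibitor gene Spink5 was 54.2 times higher (24.4 to 150), Defb20 39.5 times, Defb41 26.2 times, Bsph1 24.2 times and D730048I06Rik 21.1 times. With lowest counts made equal in both libraries, as described below, these 5 ratios were at least 108, 119, 43.7, 40.3 and 239 in turn. Each then had under 3 UMIs in corpus cells. By family, 7 of 18 Defb genes were higher in caput cells and 1 in corpus cells (3 of the 7, Defb15, Defb20 and Defb47, turned as described below). Lipocalin genes gave 3 and none of 4, and Spink genes 3 and none of 6. Of the lipocalin genes, Lcn12 turned to a log2 value of −0.10 as a mean over cells. None of 78 ribosomal protein genes was higher in caput cells and 1 was higher in corpus cells.

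Among the genes higher in the corpus cells were Crisp1, Npy and Defb22, which were far higher still in principal 6. When the ratio was divided by that of the non-principal cells, the direction turned for 8 of the 19 named genes that gave such a value. Of those higher in caput cells, Defb47 went to a log2 value of −4.98, Defb20 to −1.79, Defb15 to −1.35 and Adam7 to −0.13. Of those higher in corpus cells, Crisp1 went to 4.01, Wfdc13 to 2.70, Npy to 1.48 and Gpx3 to 0.087. Gpx5, Spag11b, Clpsl2 and Defb22, with a group under 3 UMIs, gave none. Crisp1 had 108 UMIs in caput and 1101 in corpus cells, 5.99 times higher in the latter (4.91 to 7.37), and Npy had 5 against 40, 4.70 times higher. Defb22 had 1 UMI against 49. Lrg1, a secreted leucine-rich glycoprotein gene, was 5.29 times higher, with 8 against 72 UMIs. Sgms2, a sphingomyelin synthase gene, had 4 against 39, the zinc importer gene Slc39a1 6 against 49, the cytoskeletal linker gene Plec 5 against 37 and the hydrolase gene Iah1 6 against 44. The actin gene Actb, chosen after its values were seen, had 167 against 955, 3.36 times higher.

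Some of these genes also differed between the libraries in cells that are not principal cells. In non-principal cells Gpx5 had 2264 UMIs in the caput and none in the corpus library, and the caput to corpus ratio was 345 for Spag11b, 137 for Defb20, 52.1 for Spink5 and 12.2 for Slc38a5. Crisp1 was 96.5 times higher in the corpus. Of the 55 genes higher in caput cells, 49 could be compared in non-principal cells. There, 25 were at least 2-fold higher in the caput, 15 were higher by less and 9 were lower. Of the 75 higher in corpus cells 71 could be compared, with 8 at least 2-fold higher in the corpus, 31 higher by less and 32 lower. The part of RNA from other cells in the principal 5 values was not tested.

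Per cell, at 1000 UMIs, Gpx5 was in 15 of 36 caput cells of principal 5 (41.7%, 25.5 to 59.2) and in none of 69 corpus cells, which allows up to 4.35%. Caput basal cells had it in 64 of 244 (26.2%, 20.8 to 32.2), an overlapping interval. Spag11b was in 22.2% of caput principal 5 cells against 18.9% of caput basal cells, again with overlapping intervals, so these shares alone do not show expression in principal 5. Slc38a5 was in 30.6% of caput principal 5 cells. No background is given for it, since in the corpus library 129 of 1396 non-principal cells had it and none of the 929 principal cells did. By level, Gpx5 was at 4456 UPM in caput principal 5 cells and 843 in caput non-principal cells. Crisp1 was in 34 of 69 corpus cells (49.3%, 37.0 to 61.6) against 76 of 398 corpus basal cells (19.1%), and in 6 of 36 caput cells (16.7%) against none of 244 caput basal cells. BC048679 was in 4.27% of corpus and 0.410% of caput basal cells, far below its share in principal 5.

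The authors took background off each library with its own estimate, and the lowest deposited count above 0 of a gene differed between libraries. Whether the removal set these lowest counts was not tested, and a deposited 0 need not mean that a cell had no such RNA. In the caput library the lowest count above 0 was 11 for Gpx5, 13 for Spag11b, 9 for Defb20 and 6 for Lcn5, where in the corpus library it was 1 for Gpx5 and 4 for Lcn5. For Crisp1 it was 2 in the caput and 6 in the corpus library. A cell of the caput library thus showed either no Gpx5 or at least 11 UMIs of it. Among caput principal 5 cells, 46 had none and 21 had 12 to 199. The 21 were deeper cells, with a median of 2687 UMIs against 717. They also had more Slc38a5 (1531 against 75.8 UPM), Clpsl2 (1030 against 28.4) and Defb15 (3429 against 56.9), less BC048679 (1328 against 4815), and like levels of Defb21 (4201 against 4218). Of the 55 genes higher in caput cells 26 had a lowest count of 1 in both libraries, as had 66 of the 75 higher in corpus cells. When counts under the larger of the 2 lowest counts were set to 0 in both libraries, an alternative chosen after seeing the data, 59 genes were higher in caput cells, with all 55 among them, and 80 in corpus cells, with all 75 among them. The lowest count was larger in the caput for 24 of the 55 and in the corpus for 5 of the 75, and never the other way. No call could thus be lost, and this outcome is no check of the calls.

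Some genes differed in principal 5 and not, or the other way, in the non-principal cells. They were chosen after their values were seen. Ptgds was 3.38 times higher in caput than in corpus cells of principal 5, with 1919 against 567 UPM, and 0.522 times in non-principal cells. The carcinoembryonic antigen family gene Ceacam10 was 2.32 times higher, against 0.928. The inhibitor gene Wfdc9 was 4.52 times higher in caput cells of principal 5, but had too few UMIs in non-principal cells to be compared there. The stress-response genes Dusp1 and Gadd45b were 5.32 times against 1.46 and 2.42 against 0.709. Principal 4, the other population on both sides of the border, could be compared between its caput and corpus cells for 93 genes, of which 17 (18.3%) were higher in caput and 8 (8.6%) in corpus cells. Of the 55 genes of principal 5, 14 could be compared there. In 11 of them the caput was at least 2-fold higher in principal 4 as well, and in 1 it was lower. With 19 caput cells, principal 4 gives a thin comparison.

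Markers of other cell types were few in principal 5. Basal cell markers summed to 19 UMIs, most of them Krt14 (12), with Krt5 at 0. Stromal markers summed to 23 (Dcn 16), muscle to 32 (Acta2 14), endothelial to 2 (Emcn, with Pecam1, Cdh5 and Icam2 at 0), immune to 4 (Cd74, with Ptprc, Tyrobp, Lyz2 and Cd3e at 0), red blood cell to 2 and sperm to 1 (Prm2). In UPM, basal markers were at 33.5 in caput and 42.6 in corpus cells, stromal at 5.58 and 72.1, and muscle at 11.2 and 98.3. Clear cells, the proton-pumping cells of the duct, were the exception. Their markers summed to 281 UMIs, with Atp6v0c at 135, Atp6v1g3, a subunit of the proton pump, at 113 and Atp6v1b1 at 0, and to 379 UPM in caput against 698 in corpus cells. This sum was not particular to principal 5. It was 580 UPM there, 635 in principal 2 and 578 in principal 7, and lower in principal 3 (355), 4 (313) and 6 (251). Atp6v0c was at 279 UPM in principal 5, 289 in principal 3 and 261 in principal 4. Of the 113 Atp6v1g3 UMIs, 104 lay in 3 corpus cells of 8206 to 9911 UMIs. None of these 3 cells was called a doublet, with scores of 0.567 to 0.667 where the last cell called in that library had 0.7. That cut follows from the assumed doublet rate, and whether the 3 cells were doublets was not tested further. The 3 held 164 to 458 UMIs of Lcn5 and 1 of them held 30 of Iapp, the amylin gene. Atp6v1g3 (2 against 111 UMIs) led the genes higher in corpus cells through these cells and was not enriched without them. Iapp had 2 UMIs in caput against 53 in corpus cells, of which the 3 cells held the 30. Iapp was the only one of the genes called between caput and corpus cells with at least 50% of its UMIs in 1 cell.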

How the data were processed

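Cells of 4 libraries were filtered by the authors on total UMIs before background removal. Per the labels reads were aligned to mm10 with HISAT2 2.0.4 after bcl2fastq. Deposited values are whole UMI counts per RefSeq gene (16892 genes), made by the authors with ESAT, with UMIs merged at 1 mismatch and background taken off with a modified SoupX. The table of cells deposited with them holds the t-SNE coordinates, a score with no unit. The names used here as principal 1 to 15 were matched to the deposited populations by their numbers of cells.

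The UMIs of all cells in a group were added up. Levels were given 95% Poisson intervals, ratios conditional binomial ones and shares Clopper-Pearson ones, all exact and for counting error only. Ratios used a floor of 3 UMIs per group, and the limit for a count of 0 was 3 of the total. Doublets were called per library against simulated doublets, with the number called set by an assumed rate. Named genes were the given and segment markers, the 20 most enriched and 10 lowest genes, the 10 most abundant, the 5 largest differences from principal 3, 4 and 6 in each direction, the 10 largest between caput and corpus in each direction, and called or leading members of the lists; other genes are said to be chosen after seeing values. Members, lists and rules were chosen with earlier results of these data known. Promoters came from RefSeq, without those of chromosome 18. The call rules were tested on simulated data. The alternatives numbered 96, and 3 more were chosen after seeing the data (leaving out cells with at least 10 Atp6v1g3 UMIs, a total without ribosomal protein genes, and equal lowest counts in both libraries). Other libraries of the series entered only as background populations. Scripts ran in Python 3.11.15 with pandas 2.3.3, numpy 2.4.6 and scipy 1.17.1, doublet calls used scikit-learn 1.9.0, and plots matplotlib 3.10.9.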

Additional observations from a re-analysis of the deposited data

Results flagged for a closer look

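In 4 genes the difference between caput and corpus cells went one way in principal 5 and the other way in non-principal cells, with at least a 2-fold change in both. Crisp4, a gene of the cysteine-rich secretory protein family, had a caput to corpus ratio of 2.47 in principal 5 and of 0.322 in non-principal cells, where it had 8 and 48 UMIs. Pemt, which makes phosphatidylcholine, had ratios of 2.77 and 0.322, on the same 8 and 48 UMIs. Derl3, of the degradation of misfolded proteins, had 0.408 and 2.24, with 22 and 19 UMIs in non-principal cells. Iah1 had 0.232 and 2.07, with 400 and 373. With 1 library per region these differences were not tested.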

How the results depend on the processing

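No paired analysis was possible because each region is 1 library. Counts in this order are enriched, low, higher in caput cells, higher in corpus cells, then higher and lower than principal 3, 4 and 6. Only counts that moved by over 1.5 times are given, and the cause was not tested. Folds of 8 and 4 gave 64, 36, 21, 11, 209, 73, 432, 2, 216 and 415, a minimum of 50 UMIs gave 91, 39, 28, 11, 560, 81, 768, 61, 374 and 434, and a 95% bound past the fold gave 101, 39, 25, 10, 228, 103, 325, 46, 296 and 438. Folds of 2 and 1.5 gave 561 enriched, 216 low, 141 higher in caput, 211 in corpus, 169 lower than principal 4 and 951 higher than principal 6. A minimum of 10 UMIs gave 155 higher in caput, 298 in corpus, 359 lower than principal 3, 171 lower than principal 4 and 942 higher and 1761 lower than principal 6. Against the highest or lowest other population 1 gene was enriched and 0 low. A mean over cells gave 115 higher in caput and 264 in corpus. A total without ribosomal protein genes left 68 lower than principal 4, and one without the 20 most abundant genes 593 higher and 214 lower. Divided by the ratio of non-principal cells, 117 genes were higher in corpus cells, with the floor of 3 UMIs used on both sides.

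Without the caput or the corpus library in turn, 115 and 66 genes were low, 1348 and 287 were higher and 103 and 38 lower than principal 4, and 482 and 221 were higher and 777 and 46 lower than principal 6. Without the corpus library 496 were higher than principal 3. No cells were left for caput against corpus without either library, or for principal 3 without the caput. Without one library the Rnase9 share ran from 98.6% to 100% and the Clu share from 98.6% to 100%. The Rnase9 share was 91.5% at 500 UMIs and 81.6% without drawing, and the Clu share 90.0% without drawing. The ribosomal share was 16.8% in cells of at least 1000 UMIs, 12.9% as a mean over cells and 16.5% with any Rpl or Rps suffix.

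Directions reversed in 12 values, all on the log2 scale. Without the caput library Gpx5 stood at −0.12 against the median of the others, and without the corpus library at 6.92. Without the 3 cells rich in Atp6v1g3, that gene was at −0.15 and Serpinb6b at −0.63. As a mean over cells Lcn12 was at −0.10 for caput against corpus. Divided by the ratio of non-principal cells, the caput to corpus value turned to −1.35 for Defb15, −1.79 for Defb20, −4.98 for Defb47 and −0.13 for Adam7, and to 1.48 for Npy, 0.087 for Gpx3, 4.01 for Crisp1 and 2.70 for Wfdc13. It was given for 19 named genes, and not for 15 with under 3 UMIs in a group or too few in non-principal cells. Depth limits all shares: 134 of 239 cells have fewer than 1000 UMIs.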
